A study of Mus musculus with 12 samples.

Results

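Hyaluronan is a long, unbranched sugar polymer of the extracellular matrix, and the 8 genes described here make it, cut it, bind it or serve as its receptor. TGF-β raised Has2, the main hyaluronan synthase gene of these cells, 15.5-fold in WT and 14.7-fold in KO mouse mesangial cells (MMC). It raised Cd44, the principal cell surface receptor for hyaluronan, 2.07-fold in WT and 1.91-fold in KO MMC. The lysosomal hyaluronidase gene Hyal1 fell in both genotypes. Cemip, whose product takes part in the breakdown of hyaluronan, fell in WT MMC but rose in KO MMC. Has1, Has2, Has3, Hyal1, Hyal2, Cemip, Cd44 and Tnfaip6 were taken by their symbols and make up 8 of the 25230 genes counted. Of these 8, 5 had enough reads for the test across genes (Has2, Hyal1, Hyal2, Cemip and Cd44), while Has1, Has3 and Tnfaip6 fell under the limit on low values.

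The 3 hyaluronan synthases sit in the plasma membrane, join UDP-glucuronic acid and UDP-N-acetylglucosamine into hyaluronan, and push the growing chain out of the cell. Hyal2 at the cell surface and Cemip (also called KIAA1199 or HYBID) start its breakdown, and Hyal1 and exoglycosidases finish it in the lysosome. CD44 anchors the polymer to the cell and takes it up, and TSG-6, the product of Tnfaip6, crosslinks it with heavy chains of inter-α-inhibitor. In the glomerulus, hyaluronan is sparse in health and is known to accumulate in diabetic and inflammatory disease.

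Libraries came from primary MMC, the contractile cells between the glomerular capillaries, cultured from pooled glomeruli of WT mice and of homozygous lncMGC-KO5 mice. KO5 is a line obtained by injecting Cas9 and a pair of guide RNAs into C57BL/6J embryos and crossing founders to C57BL/6. It lacks a short stretch just downstream of the start site of lncMGC, the long noncoding RNA that hosts the miR-379 cluster. Both genotypes were either serum-depleted (WT-SD, KO-SD) or given TGF-β at 10 ng/ml (WT-TGF, KO-TGF), with a time label of 24 h on all samples and 3 libraries in each of the 4 groups. The study asked how loss of lncMGC changes the response of MMC to TGF-β. The study calls the samples of a group independent, but the ages, the number of mice and whether each library had a culture of its own are not given in the sources used here. The p-values measure the spread between libraries, part of which may be technical, and genotype cannot be told apart from the cultures that carry it.

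Each library had between 19898050 and 22827706 counts on genes, and 1 count was worth 0.0434 to 0.0536 CPM (counts scaled to library size after TMM normalization). lncMGC itself was not among the genes counted. Mirg, which overlaps its far end, was above its WT-SD level in libraries labelled KO-SD (3.67 ± 0.547 against 2.33 ± 0.308 CPM, SD, n = 3), so the counts did not check the genotype labels and KO stands for the libraries as labelled. Of 10 mesangial and smooth muscle markers, Acta2 and Tagln were abundant in every library, and group means were 288 to 384 CPM for Pdgfrb and 39.7 to 486 CPM for Cspg4, whereas Thy1 had 0 or 1 count and Itga8 was at 3.05 CPM or less. These 10 genes summed to 4471 to 4650 CPM in WT-SD, 8825 to 9077 in WT-TGF, 7427 to 7454 in KO-SD and 14840 to 15010 in KO-TGF. Acta2, Tagln and Vim made up most of this sum (means 1567, 714 and 1927 CPM in WT-SD). Des, of the same list, was instead at 7.67, 5.62, 0.529 and 0.248 CPM in the same order, and Itga8 at 2.89, 1.61, 3.05 and 0.638 CPM. Of the 8 listed genes tested, KO MMC had 7 called above WT and 1 under it in SD, and 6 and 2 with TGF-β. The shares of all genes were 30.9% and 25.2% in SD, and 27.2% and 27.8% with TGF-β. Markers of other cells also moved with the groups: the summed level of 14 macrophage genes was 39.1 to 42.7 CPM in WT-SD, 21.2 to 25.2 in WT-TGF, 8.41 to 9.91 in KO-SD and 2.67 to 2.89 in KO-TGF, and Adgre1, C1qa, C1qb, C1qc and Tyrobp had no count in any KO library. The 3 parietal epithelial genes Cldn1, Pax8 and Pax2 summed to 468 to 485, 156 to 168, 218 to 235 and 78.9 to 80.2 CPM in the same order, and 8 tubular genes to 46.4 to 49.1, 13.7 to 14.6, 16.6 to 19.3 and 3.69 to 4.12 CPM. The sums of 7 glomerular endothelial genes were 33.1 to 33.5, 20.2 to 22.6, 17.2 to 18.5 and 9.25 to 10.9 CPM, and those of 7 podocyte genes 459 to 468, 455 to 474, 218 to 227 and 205 to 219.8 CPM. The sum of 4 fibroblast genes ran the other way, with 4151 to 4520, 7791 to 8185, 9416 to 10460 and 15520 to 16120 CPM. It was nearly all Col1a1 (means 4283, 7972, 9953 and 15780 CPM), also among the TGF-β target genes checked. Pdgfra was at 3.54, 0.646, 1.97 and 0.212 CPM and Dcn at 9.83, 3.60, 59.3 and 18.8 CPM in the same order. Lum had at most 3 counts in any library. Treatment raised 6 of 6 TGF-β target genes in WT and 5 of 6 in KO, where Tgfbi fell, beside 36.0% and 34.9% of all genes. In bulk libraries, fewer cells of a type and less RNA per cell cannot be told apart.

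Levels of different genes were compared per exon length, as RPKM (CPM per kilobase of exon). Cd44 ranked first in every group, with 56.6 ± 0.332 RPKM in WT-SD and 117 ± 3.39 RPKM in WT-TGF (SD, n = 3). Without TGF-β, Has2 was the lowest of the 5 genes tested, at 1.11 ± 0.0641 RPKM in WT-SD and 1.24 ± 0.146 RPKM in KO-SD. With TGF-β it moved to second place, at 17.3 ± 1.19 RPKM in WT-TGF and 18.3 ± 0.329 RPKM in KO-TGF, and its libraries then lay above all those of Cemip. The places between Cd44 and Has2 differed by genotype: in WT-SD Cemip followed Cd44, at 14.0 ± 1.05 RPKM, whereas in KO-SD Hyal2 (8.43 ± 0.551 RPKM) and Cemip (7.78 ± 0.320 RPKM) came next with overlapping libraries. Neighbors in rank also overlapped for Hyal2 and Hyal1 in WT-SD and for Cemip and Hyal2 in WT-TGF. The place of Hyal1 is less certain, because its exons overlap those of the gene Naa80, as described below.

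**Figure D1:**
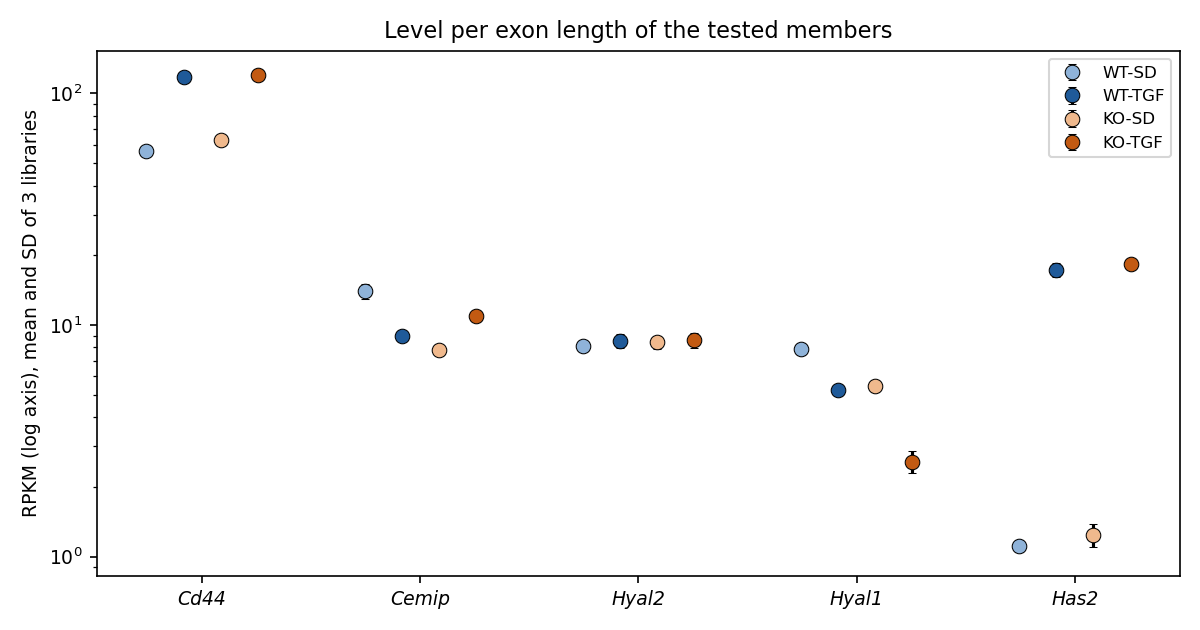
Level per exon length (RPKM, log axis) of the 5 tested hyaluronan genes in MMC of each group, as the mean with the SD of 3 libraries. Has2 moved from the lowest place, near 1.11 to 1.24 RPKM, to 17.3 to 18.3 RPKM with TGF-β, while Hyal2 kept between 8.15 and 8.60 RPKM.

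Has2, on chromosome 15 of mm10 (56665627 to 56694539, minus strand), encodes the synthase that makes most hyaluronan in mesenchymal cells. It was measured at 4.68, 4.47 and 5.01 CPM in the 3 WT-SD libraries and at 79.1, 69.7 and 71.2 CPM in WT-TGF. In KO MMC it was measured at 4.78, 5.07 and 5.96 CPM in KO-SD and at 78.5, 75.8 and 77.9 CPM in KO-TGF. Every TGF-β library thus lay far above every SD library, and the genotypes overlapped in both conditions. The log2 fold change with TGF-β was 3.96 in WT (SE 0.0690, adjusted p = 3.75e-29) and 3.87 in KO (SE 0.0684, adjusted p = 3.97e-29), both by the quasi-likelihood test of edgeR, adjusted over 11528 genes by the method of Benjamini and Hochberg, as are all adjusted p-values of tested genes here. The difference between these responses, KO minus WT, was -0.08 with a 95% interval of -0.34 to 0.17 (adjusted p = 0.695), and Has2 was called between genotypes neither in SD (log2 fold change 0.16, interval -0.08 to 0.40) nor with TGF-β (0.08, interval -0.01 to 0.17). Without WT-TGF replicate 1, the highest of its group, the last value became 0.13 and passed the threshold (adjusted p = 0.0129).

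The other synthases had few reads, where the limit of detection was set at 3 counts per library. Has3 (chromosome 8, 106870242 to 106884566, plus strand) had 12, 16 and 25 counts in WT-SD, 13, 23 and 8 in WT-TGF, 11, 9 and 13 in KO-SD and 8, 10 and 8 in KO-TGF. These libraries overlapped between the groups in all 4 comparisons of 2 groups, and none was called. Has1 (chromosome 17, 17843323 to 17855205, minus strand) had 0, 2 and 0 counts in WT-SD and 6, 1 and 7 in WT-TGF, against 2, 5 and 2 in KO-SD and 1, 6 and 3 in KO-TGF. Summed over libraries, 14 counts in WT-TGF against 2 in WT-SD gave a ratio of 7.35 with an exact 95% counting interval of 1.69 to 66.6. When every gene with a count was fitted, Has1 was called higher in WT-TGF (adjusted p = 0.00936), although the libraries overlapped, and the call was lost with DESeq2 (adjusted p = 0.0583) and without WT-SD replicate 1 (0.0592) or 3 (0.0569) or WT-TGF replicate 3 (0.0870). Per exon length, Has2 made up 89.6% ± 2.99 of the summed RPKM of the 3 synthases in WT-SD and 99.1% ± 0.114 in WT-TGF, and 91.7% ± 0.882 and 99.4% ± 0.224 in KO-SD and KO-TGF (SD, n = 3). Has2os, transcribed from the strand opposite Has2 and overlapping its exons by 182 bp, had at most 10 counts in any library and was not called in any comparison, and the counting was by strand.

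**Figure D2:**
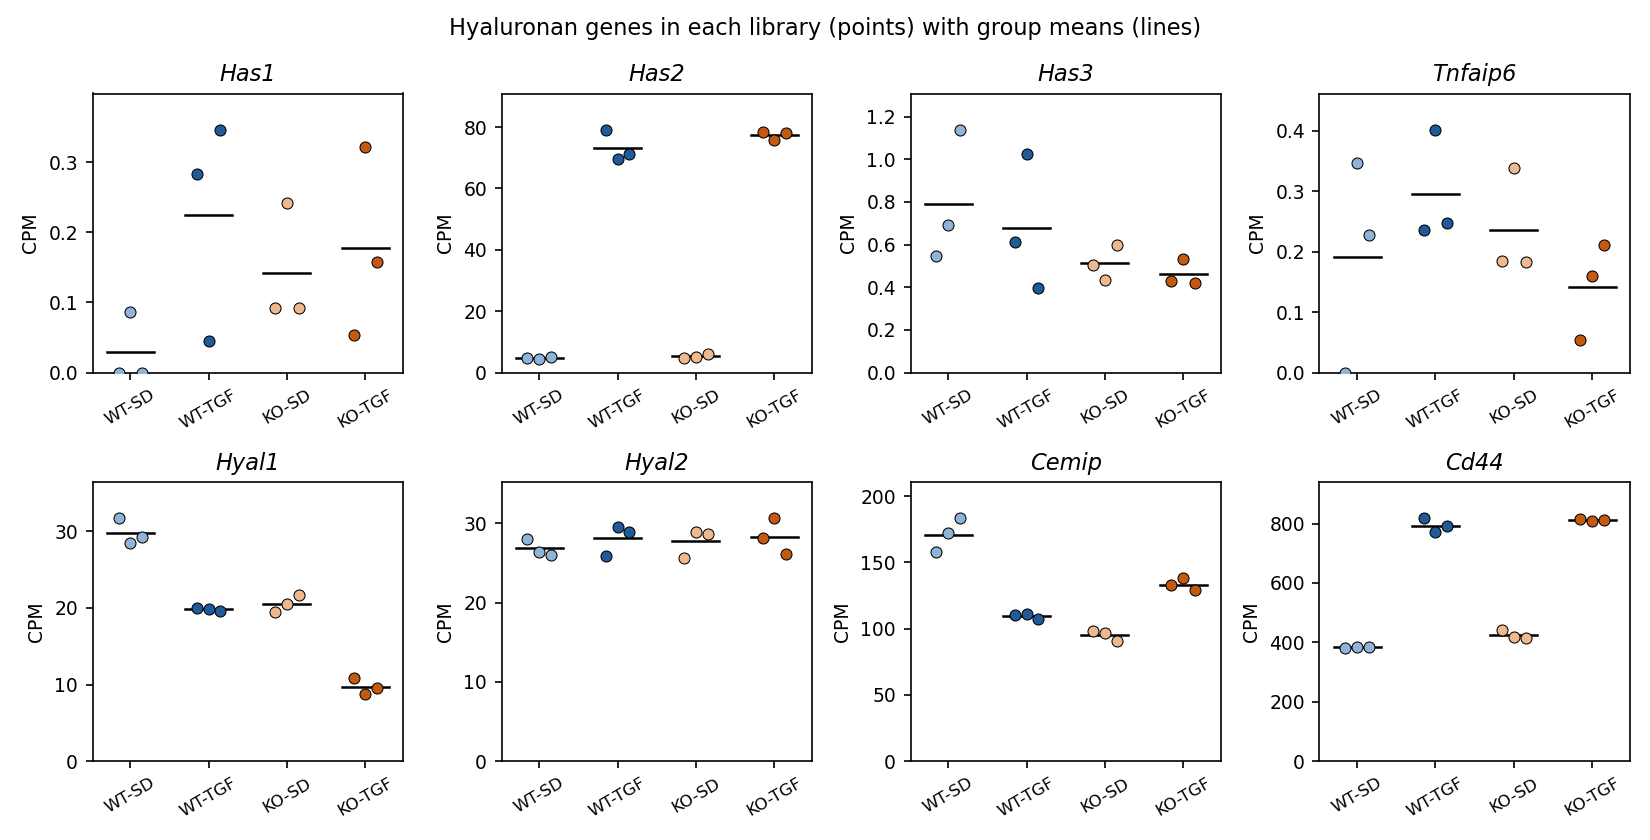
Level (CPM, linear axes from 0, each panel with its own scale) of the 8 hyaluronan genes in the 12 libraries, with points for libraries and lines for group means of 3. Has2 and Cd44 separate by TGF-β, Hyal1 falls in steps to 9.70 CPM in KO-TGF, Cemip is highest in WT-SD and lowest in KO-SD, Hyal2 overlaps in all groups, and Has1, Has3 and Tnfaip6 lie near or under 1 CPM.

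The sequence around the start site (250 bases before to 50 after it) is given for the receptor and for the 3 genes of breakdown, so that the gene whose response turned with genotype (Cemip) can be set beside one that fell (Hyal1), one that rose (Cd44) and one that was not called (Hyal2). The sequences are those of RefSeq on GRCm38.p6, the assembly of mm10, which held 6 of the 8 genes and gives Hyal2 a start site inside the gene. For Cemip the start site used was 84086505, while the RefSeq gene extends to 84086693. Part of the Cemip window before the start site thus lies inside that gene. Cemip is at chr7:84086456-84086755 and Cd44 at chr2:102901616-102901915, both on the minus strand, and Hyal1 at chr9:107576700-107576999 and Hyal2 at chr9:107568913-107569212, both on the plus strand. Capitals mark matches on either strand to the SMAD box CAGAC, the AP-1 site TGANTCA or the TATA box TATAAA, which do not overlap one another here.
Cemip: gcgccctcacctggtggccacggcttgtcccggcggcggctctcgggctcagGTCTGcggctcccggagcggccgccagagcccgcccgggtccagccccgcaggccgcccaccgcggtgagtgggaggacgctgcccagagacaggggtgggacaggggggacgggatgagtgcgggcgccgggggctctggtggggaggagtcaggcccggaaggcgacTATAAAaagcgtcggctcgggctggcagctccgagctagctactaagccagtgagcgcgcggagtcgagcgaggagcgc
Hyal1: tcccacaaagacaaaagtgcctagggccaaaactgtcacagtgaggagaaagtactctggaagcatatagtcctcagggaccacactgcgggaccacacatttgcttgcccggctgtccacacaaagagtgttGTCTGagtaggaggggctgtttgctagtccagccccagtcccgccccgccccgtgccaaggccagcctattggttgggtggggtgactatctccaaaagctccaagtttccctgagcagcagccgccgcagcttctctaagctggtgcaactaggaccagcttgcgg
Cd44: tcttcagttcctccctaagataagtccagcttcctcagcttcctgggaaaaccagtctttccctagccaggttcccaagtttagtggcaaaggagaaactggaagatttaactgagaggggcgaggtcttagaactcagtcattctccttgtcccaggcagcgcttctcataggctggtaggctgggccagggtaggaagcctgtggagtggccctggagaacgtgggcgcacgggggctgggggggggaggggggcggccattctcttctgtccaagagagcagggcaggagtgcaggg
Hyal2: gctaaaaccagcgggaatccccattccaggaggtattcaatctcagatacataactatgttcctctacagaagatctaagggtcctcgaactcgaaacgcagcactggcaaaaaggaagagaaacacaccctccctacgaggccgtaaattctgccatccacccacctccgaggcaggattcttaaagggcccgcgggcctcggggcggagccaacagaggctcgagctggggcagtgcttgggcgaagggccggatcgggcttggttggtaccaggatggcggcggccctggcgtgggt
The Cemip window held 1 SMAD box, at -198 from the start site, and 1 TATA box, at -29, and the Hyal1 window held 1 SMAD box at -117. Neither Cd44 nor Hyal2 had a match in its window. Of 32851 promoter windows of this length, 49.6% held a SMAD box, 7.81% an AP-1 site and 13.6% a TATA box. The AP-1 site was matched once among the 6 genes, at -142 of Tnfaip6. A match describes the letters of this window and is not a measured binding site.

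Cemip (chromosome 7, 83932857 to 84086502, minus strand) showed opposite responses in the 2 genotypes. Its levels were 158, 172 and 183 CPM in WT-SD, against 111, 111 and 107 CPM with TGF-β. In KO MMC they were 97.9, 96.9 and 90.7 CPM in KO-SD and 133, 138 and 129 CPM in KO-TGF. No 2 groups overlapped, and the order from the highest was WT-SD, KO-TGF, WT-TGF and KO-SD. With TGF-β, Cemip fell by 0.64 on the log2 scale in WT (SE 0.0399, adjusted p = 4.61e-15) and rose by 0.49 in KO (SE 0.0418, adjusted p = 8.28e-12). The difference between the responses was 1.13 (SE 0.0578, interval 1.01 to 1.24, adjusted p = 9.31e-16), a 2.18-fold change in the ratio of TGF-β to SD. Between genotypes, Cemip was 1.80-fold lower in KO under SD (log2 fold change -0.85, adjusted p = 1.53e-17) and 1.21-fold higher in KO under TGF-β (0.28, adjusted p = 8.83e-07). The directions were kept in all alternatives, with the difference in response between 1.07 and 1.19. The ratio of Has2 to Cemip per exon length was 0.0798 ± 0.00544 in WT-SD and 0.161 ± 0.0259 in KO-SD, and with TGF-β it was 1.93 ± 0.127 and 1.68 ± 0.0822 (SD, n = 3).

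Hyal1 (chromosome 9, 107576927 to 107581710, plus strand) was lowered by TGF-β in both genotypes, and more in KO MMC. Its 3 libraries gave 31.7, 28.5 and 29.2 CPM in WT-SD, against 19.95, 19.88 and 19.61 CPM with TGF-β. They gave 19.5, 20.6 and 21.7 CPM in KO-SD and 10.8, 8.72 and 9.56 CPM in KO-TGF. KO-TGF lay below all other groups and WT-SD above them, and TGF-β-treated WT MMC were at the level of untreated KO MMC, with overlapping libraries. The log2 fold change was -0.59 in WT (SE 0.0609, adjusted p = 5.74e-10) and -1.08, a 2.12-fold fall, in KO (SE 0.0771, adjusted p = 9.25e-14), and the difference between them was -0.50 (SE 0.0997, adjusted p = 0.000274). Hyal1 was lower in KO than in WT by 1.45-fold in SD (adjusted p = 6.93e-09) and by 2.04-fold with TGF-β (adjusted p = 1.03e-12). Of the summed markers given above, the macrophage, parietal epithelial, tubular and endothelial sums were likewise highest in WT-SD and lowest in KO-TGF. The fibroblast and the mesangial and smooth muscle sums were lowest in WT-SD and highest in KO-TGF. The podocyte sums were lower in KO but overlapped between SD and TGF-β within each genotype. Single genes made up most of some sums: Ehd3 of the endothelial (32.6 CPM in WT-SD), Lrp2 of the tubular (42.6 CPM in WT-SD) and Col1a1 of the fibroblast sum. Aqp1, of the tubular list, was highest in KO-SD (6.80 CPM, against 4.10 CPM in WT-SD). The part of the cells behind these sums in the fall of Hyal1 was not tested.

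Reads at the end of Hyal1 are uncertain, because its exons overlap those of Naa80, an N-acetyltransferase gene on the same strand, by 1920 bp in the GENCODE annotation. Naa80 itself was measured at 25.7 ± 0.339 CPM in WT-SD, 20.5 ± 0.328 in WT-TGF, 18.8 ± 0.606 in KO-SD and 14.1 ± 0.687 in KO-TGF (SD, n = 3), and its response was not called as different between genotypes (-0.09, adjusted p = 0.466). With both genes counted together, an alternative chosen after seeing the data, the log2 fold change with TGF-β was -0.46 in WT and -0.73 in KO, and the difference between the responses was -0.27 (adjusted p = 0.00199). The direction and the call were thus kept for the sum, but the values were smaller than when Hyal1 was counted alone. Naa80 was itself lower with TGF-β in both genotypes. Reads on both genes may be among those the counting set apart as ambiguous (0.225% to 0.274% of the counted total per library). The sum may thus lack the shared reads, so it does not settle what the overlap does to Hyal1.

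Hyal2 (chromosome 9, 107567945 to 107572779, plus strand), which encodes the hyaluronidase of the cell surface, was not separated by group. It gave 28.1, 26.5 and 26.0 CPM in WT-SD, against 25.9, 29.6 and 28.9 CPM with TGF-β. KO MMC gave 25.7, 29.0 and 28.7 CPM without TGF-β and 28.2, 30.6 and 26.2 CPM with it. Every pair of groups compared overlapped, and Hyal2 was not called in any comparison. The log2 fold change with TGF-β was 0.07 in WT (95% interval -0.06 to 0.19) and 0.03 in KO (-0.10 to 0.16). Scaling by library size alone placed the median of all genes at -0.16 for TGF-β in WT, -0.23 in KO and -0.13 for KO against WT with TGF-β, and turned the sign of Hyal2 in all 4 comparisons of groups, with a call for the fall in KO (-0.18, adjusted p = 0.0137). This value lay above the median of all genes under the same scaling. These separate changes moved the ratio of Hyal1 to Hyal2 per exon length. It was 0.968 ± 0.0249 in WT-SD, 0.616 ± 0.0472 in WT-TGF, 0.647 ± 0.0240 in KO-SD and 0.301 ± 0.0462 in KO-TGF (SD, n = 3). Taken within libraries, this ratio does not depend on their scaling. Its size does depend on the exon length of Hyal1, which includes the 1920 bp shared with Naa80.

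Cd44 (chromosome 2, 102811141 to 102901665, minus strand) was the most abundant of the 8 genes. Its 3 libraries gave 381, 383 and 386 CPM in WT-SD, against 817, 772 and 791 CPM with TGF-β. They gave 442, 419 and 415 CPM in KO-SD and 816, 808 and 811 CPM in KO-TGF. The TGF-β libraries did not overlap with the SD libraries of either genotype, KO-SD lay above WT-SD without overlap, and KO-TGF lay within the range of WT-TGF. The log2 fold change with TGF-β was 1.05 in WT (SE 0.0256, adjusted p = 1.71e-25) and 0.93 in KO (SE 0.0255, adjusted p = 2.85e-24). KO-SD was 1.11-fold higher than WT-SD (adjusted p = 1.03e-05), and the difference between KO-TGF and WT-TGF was not called (log2 fold change 0.03, interval -0.02 to 0.08), while scaling by library size alone turned it to -0.09 (adjusted p = 0.00204), nearer to 0 than the median of all genes. The response was smaller in KO by 0.12 on the log2 scale (interval -0.19 to -0.04, adjusted p = 0.0146), but this call was lost with DESeq2 (-0.09, adjusted p = 0.0953) and without WT-TGF replicate 1 (adjusted p = 0.0521) or KO-TGF replicate 1 (0.142), 2 (0.194) or 3 (0.158). Cd44 exceeded Has2 per exon length 50.9 ± 2.69 times in WT-SD and 6.78 ± 0.272 times in WT-TGF, and 51.02 ± 7.20 and 6.56 ± 0.0887 times in KO-SD and KO-TGF (SD, n = 3).

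Tnfaip6 (chromosome 2, 52038009 to 52056686, plus strand) was barely detected. It had 0, 8 and 5 counts in WT-SD, 5, 9 and 5 in WT-TGF, 4, 7 and 4 in KO-SD and 1, 3 and 4 in KO-TGF. KO-TGF lay under WT-TGF without overlap, but the difference was not called when every gene with a count was fitted (log2 fold change -1.03, interval -2.29 to 0.23, adjusted p = 0.220).

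**Figure D3:**
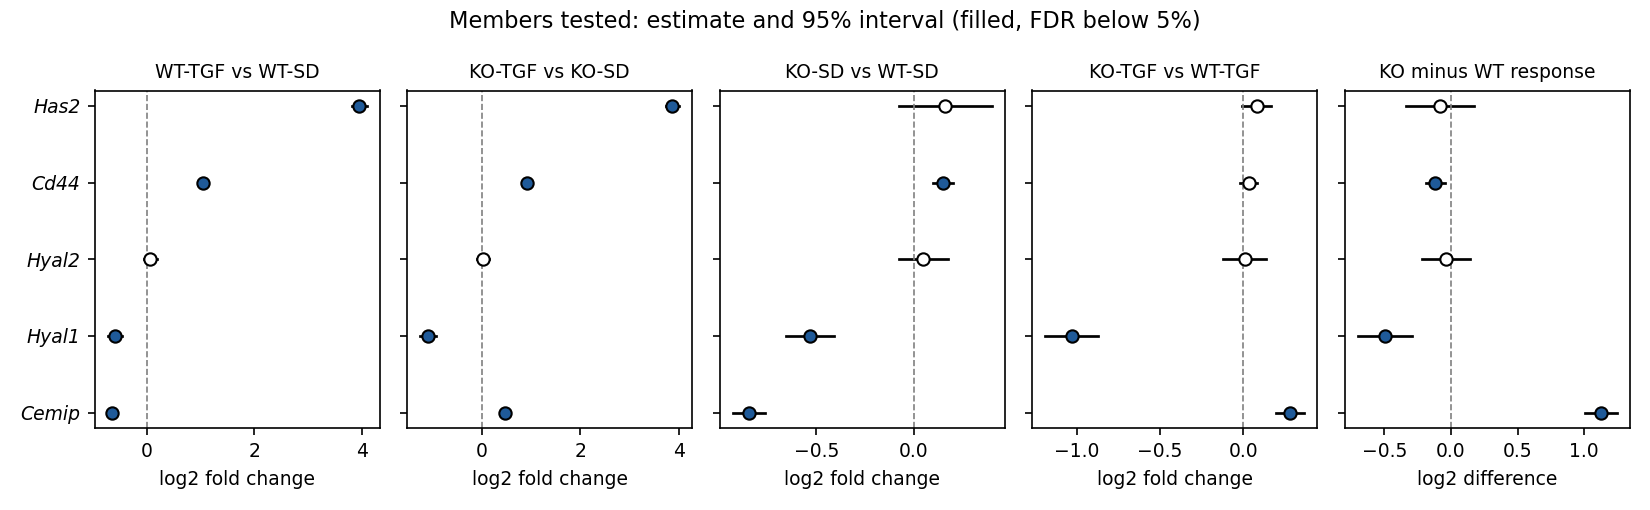
Log2 fold change (points) with its 95% interval (lines) of the 5 tested hyaluronan genes in the comparisons of groups and, at the right, the difference between the TGF-β responses, KO minus WT. Points are filled where the FDR was below 5%, and each panel has its own axis. Cemip lies at -0.64 for TGF-β in WT and at 0.49 in KO, and Hyal2 is open in all panels.

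The counts of called genes are read against those of all genes, since the spread between libraries was small (biological coefficient of variation 0.0268) and many genes passed the FDR limit of 5%. In WT-TGF against WT-SD, 2 of the 5 tested hyaluronan genes were higher and 2 lower, where 36.0% of all genes tested were higher and 36.4% lower. Both of the higher genes, Has2 and Cd44, passed a fold change of 2, which 4.14% of all genes did in that direction, while scaling by library size alone left Cd44 under it (log2 fold change 0.89). In KO-TGF against KO-SD, 3 were higher and 1 lower, against 34.9% and 39.1% of all genes. Has2 alone of the 3 passed the 2-fold limit, as did 4.38% of all genes. The lower gene, Hyal1 counted alone, passed it too, as did 1054 of the 11528 genes in that direction. In KO-SD against WT-SD, 1 was higher (Cd44) and 2 lower (Cemip and Hyal1), against 30.9% and 25.2%. In KO-TGF against WT-TGF, 1 was higher (Cemip) and 1 lower (Hyal1), against 27.2% and 27.8%. Hyal1 counted alone was again over 2-fold lower, as were 540 of the 11528 genes. The TGF-β response itself was called higher in KO for Cemip and lower for Hyal1 and Cd44, against 8.67% and 16.6% of all genes. Cemip passed the 2-fold limit here, as did 39 of the 11528 genes in that direction. For the TGF-β response, the 5 hyaluronan genes had a median of 0.07 (log2) in WT and 0.49 in KO, and all genes had medians of -0.01 and -0.03. The median gene was Hyal2 in WT and Cemip in KO. For the difference in response, KO minus WT, the median was -0.08 for the 5 genes and -0.03 for all genes. An exact permutation test of 1 gene with 3 libraries a side cannot give a p under 0.1, and none is used here.

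Beyond these 8 genes, 52 others of the pathway were listed and 29 of them were tested, with 12 higher and 13 lower with TGF-β in WT, and 13 higher and 13 lower in KO (median log2 fold change 0.01 and -0.03), beside 36.0% and 36.4% of all genes in WT and 34.9% and 39.1% in KO. Between genotypes, KO MMC had 19 of the 29 above WT and 4 under it in SD (30.9% and 25.2% of all genes), and with TGF-β 17 above and 5 under it (27.2% and 27.8%). Of the 11 precursor genes, whose enzymes make the UDP-sugars that hyaluronan synthases use, 7 rose and 1 fell with TGF-β in each genotype, beside 36.0% and 36.4% of all genes in WT and 34.9% and 39.1% in KO, with medians of 0.43 in WT and 0.21 in KO. Gfpt2, an isoform of the rate-limiting enzyme of the hexosamine pathway, rose from 2.70 ± 0.259 to 29.3 ± 3.29 CPM in WT MMC. In KO MMC it started lower, at 1.55 ± 0.124 CPM, and reached 16.9 ± 0.912 CPM. The rise was 3.44 on the log2 scale in each genotype (adjusted p = 2.15e-23 in WT and 1.05e-20 in KO), and it was lower in KO at both conditions (log2 fold change -0.79 in each). Hk2, which phosphorylates glucose, rose 2.12-fold in WT and 2.14-fold in KO (adjusted p = 2.22e-21 and 4.80e-22). Uap1l1, related to the enzyme that forms UDP-N-acetylglucosamine, was the gene that fell, by 3.19-fold in WT and 3.45-fold in KO (adjusted p = 2.26e-23 and 2.46e-24). Ugp2, which makes UDP-glucose, and Gpi1, a glycolytic isomerase, were not called with TGF-β in either genotype.

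On the side of breakdown, Hexa, which encodes a lysosomal exoglycosidase, fell with TGF-β from 237 ± 6.86 to 120 ± 3.07 CPM in WT MMC. KO MMC went from 252 ± 1.78 to 105 ± 1.004 CPM. These falls were -0.98 and -1.26 on the log2 scale (adjusted p = 9.88e-24 and 2.27e-26), and the difference of -0.28 was called (adjusted p = 1.69e-06). Cemip2, a transmembrane relative of Cemip, rose in both genotypes by 1.33-fold in WT and 1.31-fold in KO (adjusted p = 1.14e-08 and 2.25e-08), and its responses were not called as different (-0.02, interval -0.17 to 0.12).

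Of the 5 receptor genes other than Cd44, 2 were tested, and both fell with TGF-β in each genotype. Of all genes, 36.4% fell in WT and 39.1% in KO. Hmmr, a hyaluronan receptor that also acts at the mitotic spindle, went from 6.39 ± 0.949 to 2.29 ± 0.215 CPM in WT MMC, while KO MMC started at 25.1 ± 1.03 CPM and ended at 4.31 ± 0.594 CPM. Hmmr was 3.92-fold higher in KO-SD than in WT-SD (adjusted p = 1.38e-18), and its fall was larger in KO (difference -1.06, adjusted p = 5.69e-05). Layn, the receptor layilin, was lower in KO by 3.07-fold under SD and by 3.91-fold under TGF-β (adjusted p = 5.59e-12 and 2.32e-11). Of 4 binding protein genes tested, 1 rose and 3 fell with TGF-β in each genotype. The shares of all genes that rose and fell were 36.0% and 36.4% in WT and 34.9% and 39.1% in KO. Vcan, the large proteoglycan versican that binds hyaluronan, rose from 290 ± 10.2 to 1038 ± 21.1 CPM in WT MMC. In KO MMC it was already at 1225 ± 50.1 CPM and rose to 2571 ± 19.8 CPM, so that it was 4.23-fold higher in KO-SD than in WT-SD (adjusted p = 1.88e-31). Ptx3, a pentraxin that crosslinks hyaluronan together with TSG-6, fell 3.63-fold in WT and 7.40-fold in KO (adjusted p = 6.29e-17 and 6.96e-21). Itih2, a heavy chain of inter-α-inhibitor, was 3.69-fold higher in KO-SD and 4.18-fold higher in KO-TGF than in the matched WT groups (adjusted p = 2.69e-13 and 1.18e-11), and Habp4, an intracellular binding protein, fell by 0.45 on the log2 scale in WT and by 0.15 in KO.

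The partners of CD44 included genes that rose and genes that fell: of 8 tested, 3 were higher and 5 lower with TGF-β in WT, and 4 were higher and 4 lower in KO, beside 36.0% and 36.4% of all genes in WT and 34.9% and 39.1% in KO. Msn, which links the tail of CD44 to actin, rose from 1199 ± 20.5 to 2510 ± 47.4 CPM in WT MMC and, starting at 1025 ± 44.9 CPM, to 2680 ± 4.81 CPM in KO MMC (1.07 and 1.39 on the log2 scale, adjusted p = 3.39e-26 and 4.20e-29). Mmp14, a membrane protease that cleaves CD44, rose 1.81-fold in WT and 1.57-fold in KO and was 2.04-fold higher in KO-SD than in WT-SD (adjusted p = 2.98e-27). Spp1, the CD44 ligand osteopontin, was 404 ± 13.4 CPM in WT-SD, 292 ± 11.4 in WT-TGF, 935 ± 69.2 in KO-SD and 280 ± 8.97 in KO-TGF. It was 2.31-fold higher in KO-SD than in WT-SD (adjusted p = 1.49e-22), and was not called between KO-TGF and WT-TGF (log2 fold change -0.06, interval -0.14 to 0.02).

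**Figure D4:**
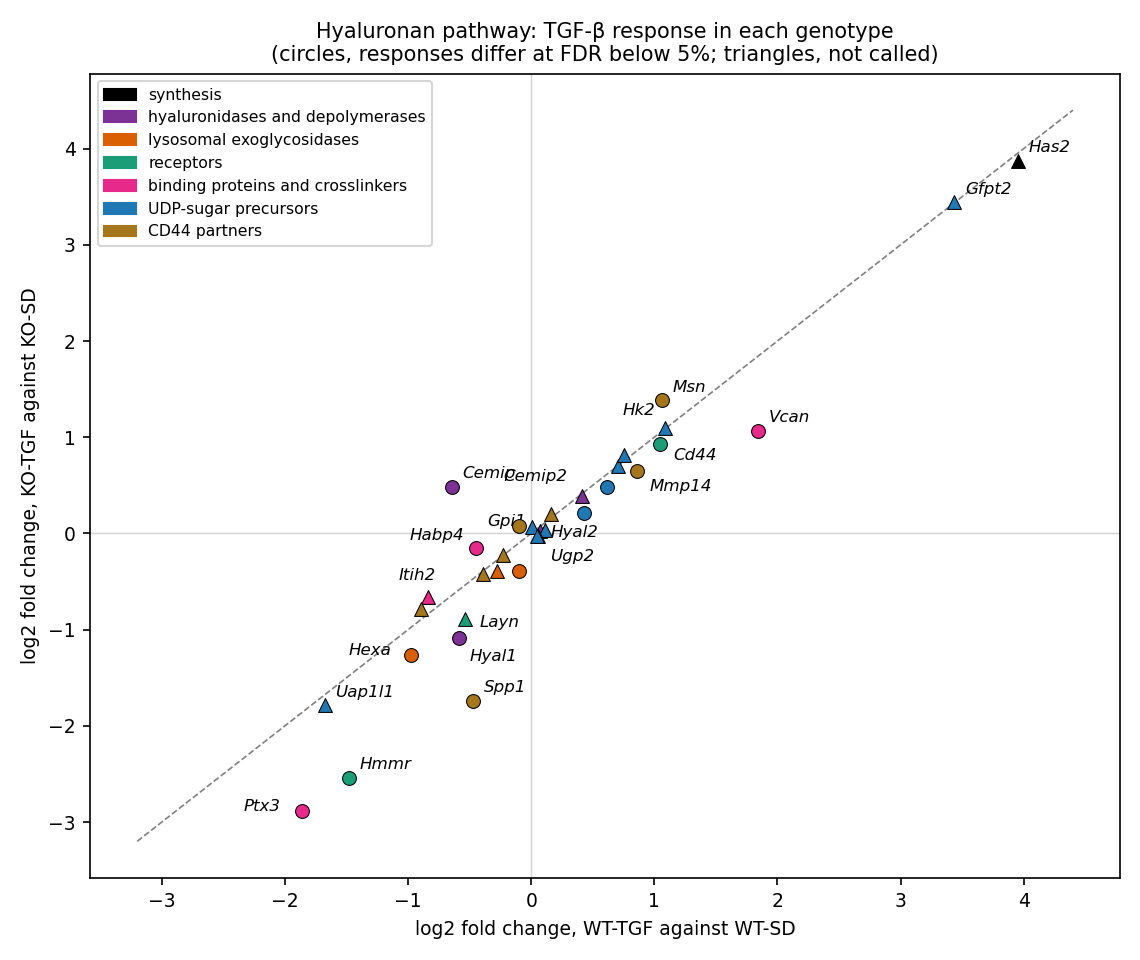
Log2 fold change with TGF-β in WT (horizontal) and in KO MMC (vertical) of the tested genes of the hyaluronan pathway, colored by list, with circles where the responses differed at an FDR below 5%, triangles where they were not called, and a dashed line for equal responses. Has2 and Gfpt2 lie at the upper right near the line, and Cemip, at -0.64 and 0.49, is in the upper left quadrant.

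The genes whose level followed each hyaluronan gene most closely were found by Pearson correlation of log2 CPM over the 12 libraries, which share 4 groups, so that each r mostly describes the group means and has no p. Has2 was most like Tnfrsf12a, the TWEAK receptor gene (r = 0.999), followed by the transcription factor genes Egr2 and Nfatc1. Egr2 went from 8.90 to 111 CPM in WT MMC and started at 10.5 CPM in KO MMC, where it reached 126 CPM. Cd44 was most like Ugcg (r = 0.998), the glucosylceramide synthase gene, followed by Ust and Rab22a. Hyal1 was most like Arvcf (r = 0.993), Patj and Mylip, all lowest in KO-TGF. Cemip had a lower highest r than Has2, Cd44 and Hyal1, at 0.962 with Map4k4, followed by Slfn2 and Kalrn (r = 0.915 and 0.913). Map4k4 was at 717 and 608 CPM in WT-SD and WT-TGF, against 571 and 631 CPM in KO-SD and KO-TGF. For Hyal2, which hardly varied, the highest r was 0.831 with Dph1.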

How the data were processed

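MMC of WT and lncMGC-KO5 mice were profiled by RNA-seq in 12 libraries. mRNA libraries were sequenced from a single end by the authors, whose alignment to mm10 used TopHat and whose counting by strand on RefSeq genes used HTSeq. The values deposited are these raw counts per gene, without normalization. Reads on no gene were 10.3% to 15.4% of the counted total per library, fewest in KO-TGF, and stayed out of library sizes with the other special rows. Alignment and counting were not repeated.

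Genes with RPKM >1 in at least 1 library were kept (11528 of 25230; exon lengths from GENCODE vM21), scaled with TMM factors and tested with edgeR 4.0.16 in R 4.3.3 by the quasi-likelihood test, in one fit of 12 libraries with 5 contrasts, at an FDR of 5%. Members under this limit were read from a second fit, of all 18565 genes with any count. SE is the log2 fold change over the root of F. Intervals from counts cover counting error only. Replicate libraries were further apart than sampling noise (chi-square per degree of freedom 1.35 to 5.05), so none was counted as a repeat.

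Tests were checked on simulated data. The members and lists were chosen with earlier results of these data known. Named pathway genes were, per list, those called with a fold change over 2 in any contrast and the 2 with the highest mean RPKM. The result of 1 gene that meets this rule is not reported here. Alternatives were library size alone, DESeq2 1.42.0, other filters, other edgeR tests, the replicate block and each library left out.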

Additional observations from a re-analysis of the deposited data

Results flagged for a closer look

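The TGF-β response differed between KO and WT, by the test of the difference itself, for 3 of the 5 tested hyaluronan genes. It was higher in KO for 1 of the 5 and lower for 2, beside 8.67% and 16.6% of all genes. The difference on the log2 scale, KO minus WT, was 1.127 for Cemip (adjusted p = 9.31e-16), whose response had opposite signs, -0.4969 for Hyal1 (adjusted p = 0.000274), which fell more in KO, and -0.1173 for Cd44 (adjusted p = 0.0146), which rose less. The call for Cd44 was lost with DESeq2 (adjusted p = 0.0953) and without WT-TGF replicate 1 (0.0521) or KO-TGF replicate 1 (0.142), 2 (0.194) or 3 (0.158). All other adjusted p-values are those of the edgeR fit described above.

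Among the other pathway genes named, the difference in response was -1.268 for Spp1, -1.061 for Hmmr, -1.028 for Ptx3 and -0.772 for Vcan, each with a higher level in KO-SD than in WT-SD. It was 0.3214 for Msn, 0.2974 for Habp4, -0.2847 for Hexa and -0.204 for Mmp14. The adjusted p-values of these 8 genes lay between 6.62e-18 and 0.000295. Groups of 3 libraries were not tested for single libraries that stand apart.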

How the results depend on the processing

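Of 188 recomputed counts of called hyaluronan genes, 180 were within 1.5 times the reported count. With library size alone, 2 in place of 1 were lower in KO-TGF against KO-SD (Hyal2 added) and 2 in place of 1 in KO-TGF against WT-TGF (Cd44 added), and with DESeq2 1 in place of 2 had a lower response in KO (Cd44 lost). Leaving out 1 library gave 1 to 2 genes higher in KO-TGF against WT-TGF (2 without WT-TGF replicate 1, Has2 added) and 1 to 2 genes with a lower response in KO (1 without WT-TGF replicate 1 or KO-TGF replicate 1, 2 or 3, Cd44 lost). Signs turned for Hyal2 with library size alone, at -0.08914 and -0.1753 for TGF-β in WT and KO and -0.02743 and -0.1136 for KO against WT in SD and TGF-β, and likewise for Has2 (-0.04301) and Cd44 (-0.08842) in KO-TGF against WT-TGF, for Ugp2 (-0.003574) and for Msn (-0.02664). With single libraries left out, the log2 fold change of Hyal2 ranged from -0.02528 to 0.1029 for TGF-β in KO, from -0.05067 to 0.07909 for KO against WT with TGF-β and from -0.09872 to 0.05197 for the difference in response, and the difference in response of Has2 ranged from -0.1502 to 0.01748. The cause was not tested. No other sign turned among 483 values of the 5 tested genes and Has1, of which 9 lost a call and 1 gained one, or among 1338 of the other named genes, of which 11 lost a call.

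Same-numbered libraries did not deviate together (correlations of deviations -0.0142 to 0.0653 for 12 pairs), so the numbers were not taken as pairs. With the replicate number as a block, the called hyaluronan genes were as many in each comparison (2 higher and 2 lower for TGF-β in WT, 3 and 1 in KO), and all calls went from 8348 to 8445 for TGF-β in WT and from 2913 to 3171 for the difference in response. Depth was lowest for Has1, Has3 and Tnfaip6, which had at most 25 counts in any library.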
